A study of Mus musculus with 4 samples.

Results

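N6-methyladenosine (m6A) peaks in the distal 3' UTR were examined in m6A RNA immunoprecipitation sequencing (meRIP-seq) of mouse c-Kit+ foetal liver cells. A distal 3' UTR peak was defined as one whose summit, the position of highest signal, lay in the 3' UTR more than 200 nt past the stop codon on the spliced transcript. There were 1853 such peaks of 15635 in replicate 1 and 1826 of 14872 in replicate 2. They made up 17.1% and 17.5% of the 10829 and 10464 summits that could be placed on the transcript of exactly 1 protein-coding gene.

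The series has 4 samples, 2 m6A IP libraries and 2 input libraries. Per the labels, the cells came from C57BL/6 mice and were enriched for Kit with magnetic beads, and the IP samples are given as total RNA and the input samples as polyA RNA. The study's methods describe the cells as Ythdf2CTL, that is Ythdf2 fl/fl without Cre, so both replicates carry an allele with a floxed exon 2 and GFP fused to YTHDF2 after its start codon. No second genotype or treatment was included, the gestational age is not given beyond foetal, and the peak lists of the IP libraries were the only measurements analysed here. As a check of the cell label, 5 of 10 hematopoietic progenitor markers (Cd34, Gata2, Runx1, Spi1 and Lmo2) had an exonic peak summit in both replicates, whereas Kit, Ptprc, Gata1, Myb and Flt3 did not. Apoa1 of 5 hepatocyte markers, Csf1r of 3 macrophage markers and Kdr of 3 endothelial markers also had one. Over all genes with a 3' UTR over 200 nt, 5734 of 16961 had a placed summit in both replicates. Marker counts this small therefore do not settle the cell label. A peak needs both expression and methylation, so these counts do not measure how many cells of each type were present.

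A methyl group on the N6 position of adenosine marks many mRNAs. The METTL3-METTL14 methyltransferase places it mostly at DRACH sequences (an A with a purine before it and C after it, flanked by any base but C upstream and any base but G downstream), and it accumulates in long last exons and around stop codons. The reader protein YTHDF2 binds methylated mRNA and recruits deadenylation machinery that shortens the life of the transcript. The 3' UTR is also where microRNAs, AU-rich element binding proteins and Pumilio proteins bind, and its end carries the polyadenylation signal.

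The sequences carrying the findings are given first. They are candidate sites of some of the strongest, the most remote and the most repeated distal peaks, with Tnfrsf1b added as a gene the study singles out. Each is 25 nt of the RNA sense strand, written as DNA, and is centered on the A of a GGAC followed by A, C or T that lay within 100 nt of the summits of both replicates. The capitals mark GGAC and the base after it. The Lnx2 site lay 83 and 80 nt from the summits, with no GGAC within 50 nt of either. That of Gadd45g lay 52 and 62 nt away. meRIP-seq does not resolve single bases, so each sequence is a match to the motif and not a mapped methylation site. Such a match was present for 970 of the 1425 peak pairs described below, or 68.1% (95% exact Clopper-Pearson interval 65.6 to 70.5%). The share of all distal 3' UTR positions with such a match was not computed. For GGAC within 100 nt of a single summit, the share was 1.63 times that of all distal positions. Within 50 nt it was 2.03 times.
Rhob: agcatgaactGGACTtggccatctt
Gadd45g: gcgaccgcctGGACTtggtacagcg
Ier2: gccagggtgtGGACCcgccctaggg
Tmem229b: cacatcctggGGACTaggagctggg
Popdc2: ctctgagcctGGACTgtgaggctag
Tent4a: acctcgccaaGGACAagctctgtgt
Lnx2: gctattgaagGGACAgagcaacctg
Tnfrsf1b: tcaagatactGGACActtggggccg
Strbp: tgtagactttGGACTttccaagtat
Aak1: acctggagggGGACAtgctggactg
Notch2, proximal: cctgatcttaGGACTcattgatcca
Notch2, middle: tctggtcactGGACCtaccccagac
Notch2, distal: tgtgatttcaGGACCcggactttaa

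On GRCm38, these lie in the last exon of their gene, in the 3' UTR. Rhob is at chr12:8498423-8498447 (minus strand), Gadd45g at chr13:51848309-51848333 (plus), Ier2 at chr8:84661665-84661689 (minus), Tmem229b at chr12:78964407-78964431 (minus) and Popdc2 at chr16:38377976-38378000 (plus). Tent4a is at chr13:69498437-69498461 (minus), Lnx2 at chr5:147018361-147018385 (minus) and Tnfrsf1b at chr4:145214641-145214665 (minus). Strbp is at chr2:37570121-37570145 (minus), Aak1 at chr6:86996044-86996068 (plus), and the 3 Notch2 sites are at chr3:98148438-98148462, chr3:98149456-98149480 and chr3:98150040-98150064 (plus). The base after GGAC differed between genes, and T followed it in 6 of these 13 sites.

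The values behind each peak are its fold enrichment, which is the IP signal over the local background estimated by the peak caller, and its -log10 q-value. The number of IP reads at the summit and the number of background reads were recovered from fold and p for every peak. Both are given before the scaling between IP and background that enters the fold. As fitted, that scaling was 0.8735 for the background reads of replicate 1 and 0.952 for the IP reads of replicate 2. The fold also adds 1 to each scaled count, so it is not the plain ratio of the printed reads. The total depth of the libraries is not in the peak lists. The median distal 3' UTR peak rested on 72 IP reads against 20 background reads in replicate 1, and on 70 against 16 in replicate 2. Its fold enrichment was 3.90 (quartiles 2.88 and 5.44) and 4.03 (2.89 and 5.73), and its width 457 and 470.5 bp. Peaks with fewer than 2 background reads, whose fold is the least certain, made up 6.26% and 10.4% of the distal peaks.

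In median fold, distal 3' UTR peaks lay between coding peaks of the last exon, which were higher, and stop codon peaks, which were lower. The median fold of coding peaks in the last exon was 4.90 in replicate 1 and 5.08 in replicate 2, on 62 and 61 IP reads and on 13 and 10 background reads. For stop codon peaks, whose summits lay within 200 nt of the stop codon, it was 3.49 and 3.63, on 91 and 88 IP reads and 28 and 21 background reads. The median background thus ranked in the opposite order to the median fold across the 3 classes, and its part in the difference was not tested. At the 200-nt boundary itself, the 299 and 280 summits at 150 to 200 nt had a median fold of 3.69 and 3.87, and the 244 and 240 summits at 200 to 250 nt one of 3.48 and 3.88.

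Most distal 3' UTR peaks were found again in the other biological replicate. A peak of the other list overlapped 1615 of 1853 (87.2%) in replicate 1 and 1609 of 1826 (88.1%) in replicate 2, where 80.6% and 83.9% of the peaks in the whole lists did. In 1457 (78.6%) and 1441 (78.9%) the overlapping peak had its summit in the distal 3' UTR too. In 138 (7.45%) and 157 (8.60%) it had its summit at the stop codon, in 13 and 5 in another part of a transcript, and in 7 and 6 at no placed position. The remaining 238 (12.8%) and 217 (11.9%) had no counterpart. These unshared peaks were narrower, with a median width of 239 bp against 508 bp for shared ones in replicate 1 and 242 against 518 bp in replicate 2. They rested on 42.5 IP reads against 77, and on 29 against 78. Their GGAC share within 50 nt of the summit was 46.6% against 58.0%, and 46.5% against 56.6%.

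The share found again was compared with the neighboring classes by Fisher's exact test, two-sided, in each replicate, with Benjamini-Hochberg adjustment over 8 class comparisons. Against last-exon coding peaks (90.6% and 90.8%), distal peaks were found again less often. Distal minus coding was -3.39 percentage points in replicate 1 (95% Newcombe interval -5.55 to -1.18, exact test, adjusted p = 0.00753) and -2.69 points in replicate 2 (-4.83 to -0.49, exact test, adjusted p = 0.0379). This difference depended on the overlap rule: with 50% reciprocal overlap it was 1.06 points and with summits within 100 bp it was 0.70 points, both in the opposite direction and not past the threshold. Against stop codon peaks the replicates differed. The difference was 0.03 points in replicate 1 (-1.90 to 1.90, exact test, adjusted p = 1) and -4.24 points in replicate 2 (-6.03 to -2.52, adjusted p = 7.54e-06), so it was not called. Here too the overlap rule mattered: the mean difference of both replicates was -6.12 points with 50% reciprocal overlap (larger adjusted p of both exact tests 0.00018) and -9.10 points with summits within 100 bp (1.17e-09), past the threshold in both replicates. Each p-value compares the peaks of a single library, and peaks of a gene share a transcript, so these tests describe the libraries rather than a population of animals.

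Overlapping peaks with a distal 3' UTR summit in each replicate formed 1425 pairs in 1302 genes. Their summits were close, with a median distance of 16 bp (quartiles 4 and 50). The mean fold of a pair ranged from 1.44 to 18.5, with a median of 4.08. The log2 fold of replicate 2 minus that of replicate 1 had a median of -0.02 and an SD of 0.39, and 97.6% of pairs were within 2-fold. Across pairs, Spearman's rho of the fold was 0.833 (n = 1425), and it was 0.824 over the 1181 pairs with at least 5 background reads in each replicate. The points are peaks of the same 2 libraries and share their base composition and transcript abundance, so rho is given as a description with no p.

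**Figure D1:**
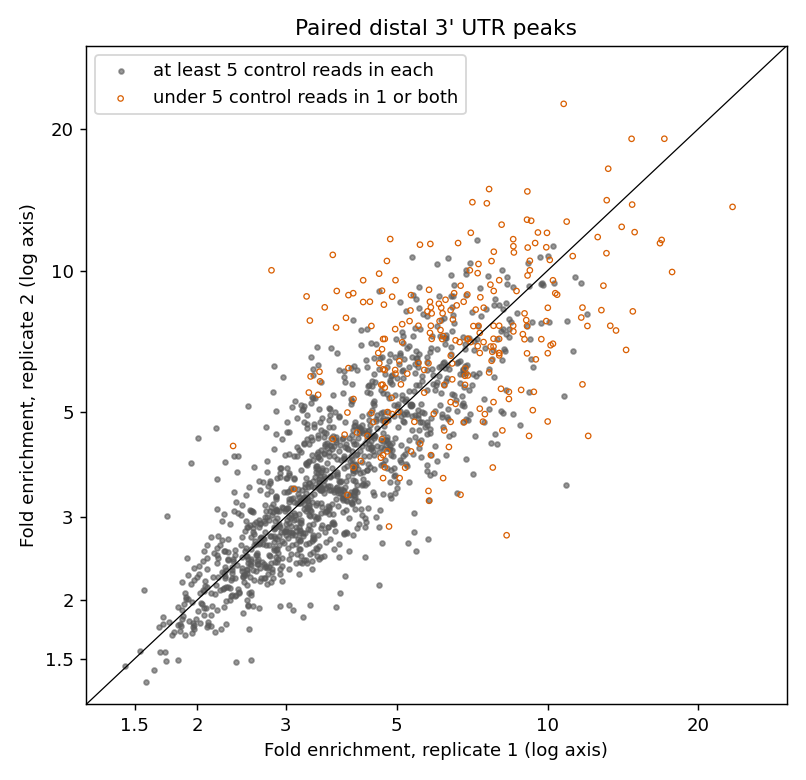
Fold enrichment of the 1425 paired distal 3' UTR peaks in replicate 1 (x axis, log scale) and replicate 2 (y axis, log scale). Each point is a pair, open orange points have fewer than 5 background reads in 1 or both replicates, and the line marks equal fold; the points spread around the line, with open points mostly at high fold.

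The strongest pairs by the lower -log10 q of both replicates were in Rhob, Gadd45g, Ier2, Tmem229b, Klf13, Popdc2, Tent4a, Zfp955b, Lnx2 and Dcun1d2. Rhob, a small GTPase of actin and endosome control, had a peak of 7.84-fold (137 IP reads against 19 background reads) at 604 nt past the stop codon in replicate 1. In replicate 2 it was 8.71-fold (138 against 14.2) at 635 nt. Its 3' UTR is 1381 nt long, so both summits lay before its middle. Gadd45g, a stress-inducible regulator of growth arrest, showed 6.46-fold (141 against 24) and 8.84-fold (129 against 13) at 290 and 280 nt of a 489-nt 3' UTR. Ier2, an immediate-early gene, showed 5.53-fold (159 against 32) and 8.34-fold (148 against 16) at 404 and 407 nt. Both genes had a higher fold in replicate 2, where their IP reads were fewer and their background reads fewer still. Popdc2, a cAMP-binding membrane protein, had summits at exactly 363 nt in both replicates, with 9.66- and 10.7-fold.

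The other members of this group lay at varied depths of the 3' UTR. Klf13, a zinc-finger transcription factor, had its summits at 964 and 1010 nt of 5157 (5.12- and 7.41-fold). Tent4a, a noncanonical poly(A) polymerase, had its summits at 1465 and 1539 nt (7.52- and 8.28-fold), and Dcun1d2, a cullin neddylation factor, at 1244 and 1243 nt (5.62- and 5.98-fold). Zfp955b encodes a zinc-finger protein of a family with many similar copies, where shared reads could shift the value. It showed 8.53- and 9.24-fold at 1166 and 1169 nt. Tmem229b had its summits only just inside the distal class, at 225 and 223 nt (6.01- and 6.82-fold), and Lnx2, a ubiquitin ligase, at 465 and 468 nt (8.26- and 8.52-fold). In each of these 10 genes both replicates gave at least 5-fold enrichment.

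Ranking by the lower fold, with at least 5 background reads in each replicate, named largely other genes. Nlrx1, a mitochondrial member of the NLR family, led with 10.3- and 11.3-fold at 251 and 247 nt. It was followed by Snx30, a sorting nexin, with 10- and 10.7-fold at 265 and 243 nt of a 5770-nt 3' UTR. Arrdc4, Dock5, Jdp2 and Tns3 had folds between 9.40 and 11.7, at 220 to 427 nt, and Popdc2 appeared in this ranking too. Mob3c stood apart by position, with 9.70- and 9.39-fold at 1790 and 1792 nt, 244 and 242 nt before the annotated 3' end. These peaks had 60 to 93 IP reads against 5 to 10 background reads, so a few background reads more or less would move their fold.

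**Figure D2:**
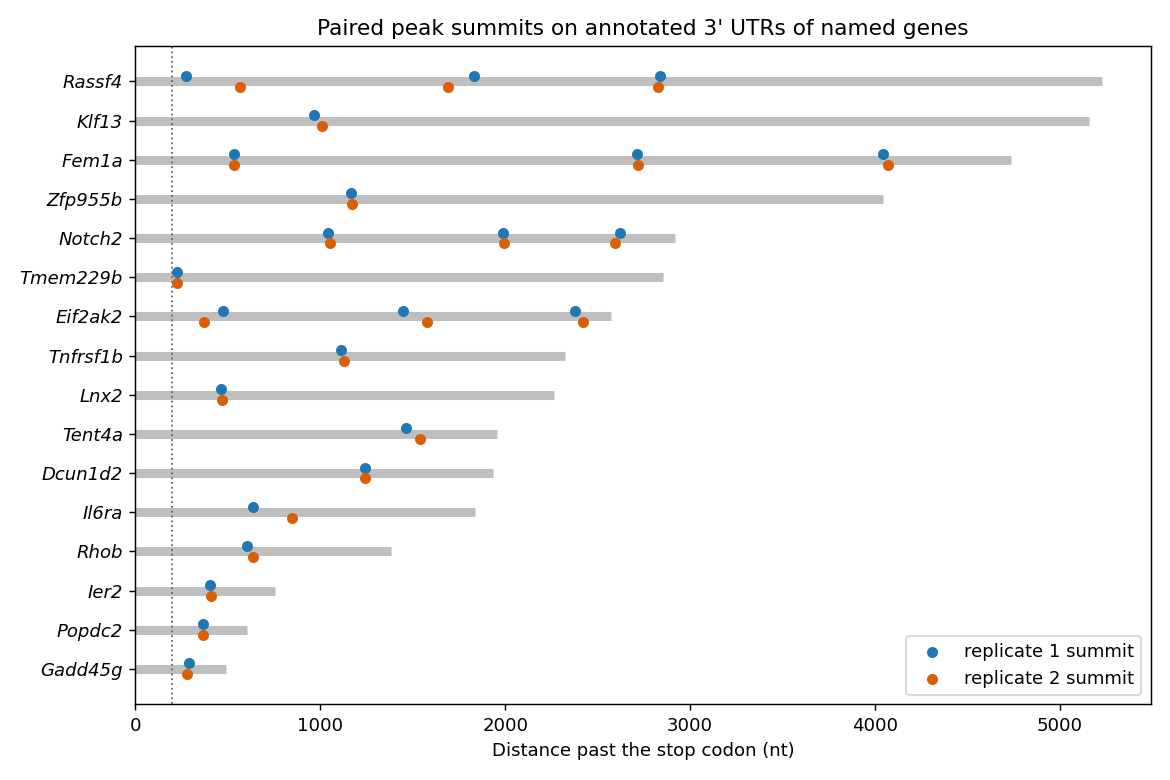
Summits of paired distal 3' UTR peaks on the annotated 3' UTR of 16 named genes. The x axis is the distance past the stop codon in nt, gray bars span the 3' UTR, blue and orange points are replicates 1 and 2, and the dotted line marks 200 nt; most paired points coincide, and Rassf4, Fem1a, Notch2 and Eif2ak2 carry 3 pairs each.

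Most genes with a distal 3' UTR peak had 1 such peak. Of 1634 genes in replicate 1 and 1615 in replicate 2, 1449 (88.7%) and 1428 (88.4%) had 1 peak, 156 and 166 had 2, and 29 and 21 had 3 or more. Neighboring peaks of a gene were a median of 889 and 988 nt apart, with the closest at 299 and 305 nt. A stop codon summit was present in 363 (22.2%) and 347 (21.5%) of these genes as well. In 778 (47.6%) and 775 (48.0%) the distal 3' UTR held every placed summit of the gene.

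The largest number of pairs in a gene was 3, and 4 of the genes with 3 pairs are described here. Notch2, a receptor of cell fate signaling, had pairs at 1039 and 1051 nt (6.33- and 4.83-fold), at 1989 and 1993 nt (3.72- and 4.46-fold) and at 2622 and 2595 nt (3.27- and 5.16-fold). Each of the 3 carried one of the GGAC sites printed above. Eif2ak2, the double-stranded RNA sensor kinase PKR, had its strongest pair in the middle of the 3' UTR, at 1446 and 1577 nt (4.70- and 3.89-fold). The flanking pairs of Eif2ak2 were 2.20- and 2.73-fold at 474 and 368 nt, and 3.90- and 3.26-fold at 2377 and 2420 nt. Fem1a, a substrate receptor of a ubiquitin ligase, spread its pairs from 531 to 4071 nt. Rassf4, a Ras association domain protein, had the fewest reads of these 4 genes, with 18 to 54 IP reads, and its summits differed by 292 and 144 nt in the 2 pairs closest to the stop codon.

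The most remote pairs lay kilobases from the stop codon. Strbp, a double-stranded RNA binding protein, had a peak at 13912 and 13910 nt of a 14162-nt 3' UTR, with 10.1-fold (55 IP reads against 5.2) and 10.5-fold (49 against 3.5). The summits thus lay 250 and 252 nt before the annotated end. Aak1, a kinase of clathrin adaptors, had a peak of 9.23-fold (84 against 9.4) and 7.14-fold (71 against 8.6) at 8749 and 8759 nt, in the interior of a 15925-nt 3' UTR. Ppp1r7, a regulatory subunit of protein phosphatase 1, had one at 7857 and 7858 nt (4.65- and 4.01-fold), and Zbtb1, a zinc-finger factor of lymphoid development, at 7799 and 7815 nt (3.05- and 3.72-fold). D10Wsu102e had a pair at 11580 and 11648 nt (7.32- and 7.38-fold) on 14 and 16 IP reads. Its annotated 3' UTR of 122583 nt is the longest in the annotation used, so the position depends on that gene model.

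Distal 3' UTR peaks were densest just past the boundary and thinned out along the 3' UTR. The median summit lay at 535 nt (quartiles 310 and 1128) past the stop codon in replicate 1 and 541 nt (314 and 1096.5) in replicate 2, or 37.9% and 37.7% of the way along 3' UTRs with a median length of 1937 and 1941.5 nt. Summits more than 1000 nt past the stop codon numbered 536 (28.9%) and 518 (28.4%), and 99.6% and 99.7% of the summits were in the last exon. Distance bins are open at their lower edge. Per kb of annotated 3' UTR in genes with a placed summit, there were 0.536 and 0.525 distal summits at 200 to 400 nt, 0.278 and 0.280 at 400 to 600 nt, and 0.145 and 0.137 at 800 to 1000 nt. The density was 0.0926 and 0.0910 at 1500 to 2000 nt and 0.0342 and 0.0326 beyond 5000 nt. Between 200 and 1000 nt it was 3.76 and 3.86 times that beyond 1000 nt.

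The decline was also present within 3' UTRs of similar length. In the 1624 genes with 3' UTRs of 2000 to 4000 nt, the density fell by distance from 0.477 and 0.480 per kb at 200 to 400 nt, through 0.166 and 0.169 at 600 to 1000 nt, to 0.0828 and 0.0775 beyond 2000 nt. The fold did not decline with distance, being 3.72 and 3.94 at 200 to 400 nt and 4.18 and 5.08 beyond 5000 nt. The reads behind the peaks did: the median background went from 24 and 19 reads at 200 to 400 nt to 8.5 and 6.28 beyond 5000 nt, and the median IP reads from 88 and 83.5 to 42.5 and 39. The part of this fall in reads in the decline of peaks was not tested. The share found again was 87.6% and 90.3% at 200 to 400 nt and 79.0% and 82.1% at 1500 to 2000 nt. It was 89.7% and 88.1% at 2000 to 3000 nt and 72.3% and 82.5% at 3000 to 5000 nt. Beyond 5000 nt it was 63.6% (95% interval 40.7 to 82.8%, n = 22) and 66.7% (43.0 to 85.4%, n = 21). It thus followed no steady course with distance.

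Few distal summits lay close to the annotated 3' end. The last 200 nt held 53 and 55 summits, or 0.0414 and 0.0429 per kb, against 0.188 and 0.185 in the rest of the distal 3' UTR, a ratio of 0.220 and 0.232. In the last 100 nt there were 6 in each replicate. At 200 to 400 nt before the end the density was highest, at 0.297 and 0.292 per kb. This bin pools 3' UTRs of all lengths, and in short ones it also lies close to the stop codon, where summits were densest. Distance before the end was not examined within 3' UTRs of similar length. Called peaks were at least 200 bp wide, and a fragment cannot extend past the end of the mRNA, and the part of this in the low density was not tested.

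**Figure D3:**
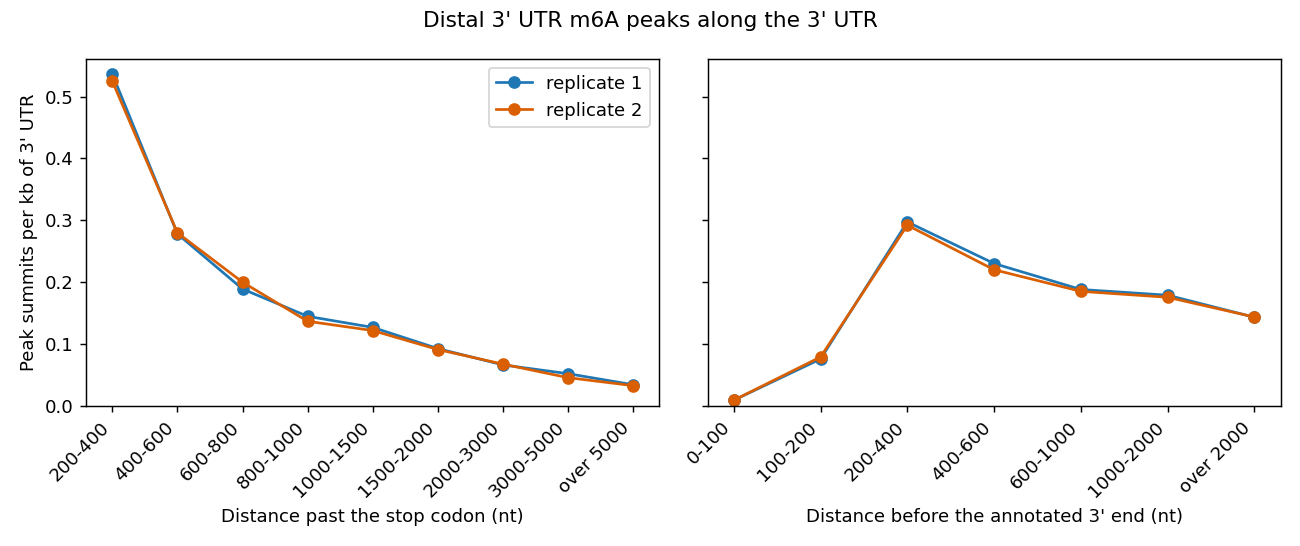
Distal 3' UTR peak summits per kb of annotated 3' UTR against the distance past the stop codon (left) and before the annotated 3' end (right), in nt bins of unequal width. Blue and orange lines are replicates 1 and 2; density falls from 0.536 and 0.525 per kb at 200 to 400 nt, and it is 0.00909 per kb in the last 100 nt in both replicates.

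A distal 3' UTR summit in both replicates was found in 1311 genes, which is 7.73% of the 16961 genes with a 3' UTR over 200 nt and 22.9% of the 5734 among them with any placed summit in both. The share rose with the annotated length of the 3' UTR. It was 0.475% (19 of 3999 genes) for 200 to 500 nt, 6.29% (253 of 4022) for 500 to 1000 nt, 9.95% (440 of 4421) for 1000 to 2000 nt, 13.05% (435 of 3334) for 2000 to 4000 nt and 13.8% (164 of 1185) for longer ones. Per kb of distal 3' UTR, by contrast, the number of such genes was highest in the 500 to 1000 nt class, at 0.118, and 0.0243 in the longest class. Gene abundance was not measured in these lists, so genes without a peak include genes that were not expressed.

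The core motif was common near distal 3' UTR summits. GGAC on the sense strand lay whole within 50 nt of 1047 of 1853 summits (56.5%, 95% exact interval 54.2 to 58.8%) in replicate 1 and 1011 of 1826 (55.4%, 53.1 to 57.7%) in replicate 2, where 56.1% and 56.0% of the summits in all transcript parts had it. The distal share is therefore close to that of the other placed summits. It was 2.04 and 2.02 times the 27.7% and 27.4% found by scanning every distal 3' UTR position of the same genes with the same window. Summits also lay in sequence of higher median GC content (51.5% and 50.5%) than all distal positions (46.5%). The part of base composition in the GGAC ratio was not tested. GGACT, a subset of the GGAC matches, was at 26.6% and 26.7% against 10.2% and 10.1% of all positions. The wider DRACH consensus was at 96.1% and 96.5% against 86.5% and 86.6%, so most windows of this size held it whether or not they were at a summit.

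Among distal summits with GGAC, the base after the nearest GGAC was T in 39.5% and 41.5%, A in 33.0% and 35.0%, C in 22.0% and 18.2% and G in 5.44% and 5.24%. In GGAC across the same 3' UTRs, T followed in 32.6% and 32.8% and A in 36.8% and 36.9%. C followed GGAC in 24.26% and 24.03% across the same 3' UTRs. Summits thus had more T after GGAC than the surrounding sequence, as a description of these sites. The 95% exact interval of the T share (36.6 to 42.6% and 38.5 to 44.7%) lay above the surrounding value in both replicates. A and C were lower at summits, but not beyond counting error in each replicate. The interval of A in replicate 2 and that of C in replicate 1 covered the surrounding value. GGAC was spread around the summits unevenly: its frequency reached 10.1 per 1000 nt at 40 nt downstream of the summit in replicate 1 and 12.2 at 10 nt downstream in replicate 2, against 3.43 and 3.39 over all distal positions. At 200 nt upstream it was 3.18 and 3.56 per 1000 nt, near the level of all positions.

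**Figure D4:**
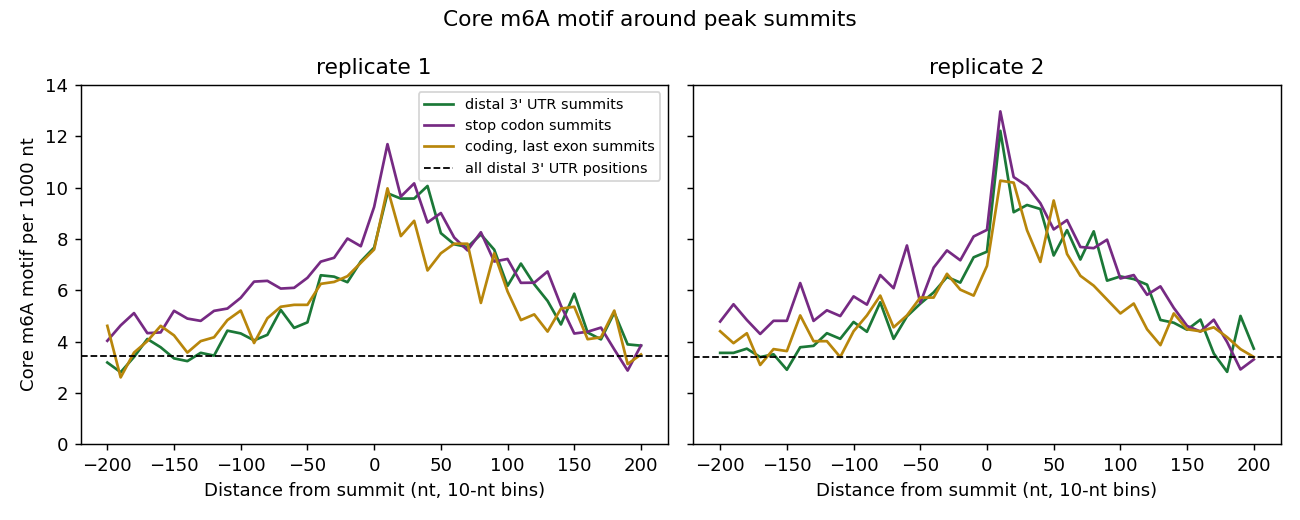
Frequency of the core motif per 1000 nt (y axis) in 10-nt bins by distance from the summit, upstream negative and downstream positive on the sense strand (x axis), for replicates 1 and 2. Lines are distal 3' UTR, stop codon and last-exon coding summits, and the dashed line is the frequency over all distal 3' UTR positions of genes with a distal peak; the 3 classes reach their maximum 10 to 40 nt downstream of the summit.

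The GGAC share was compared with both neighboring classes in the same family of exact tests. Stop codon summits had it in 59.4% and 59.9%. Distal minus stop codon was -2.85 points in replicate 1 (-5.66 to -0.05, Fisher's exact test, adjusted p = 0.0652) and -4.51 points in replicate 2 (-7.36 to -1.65, adjusted p = 0.00753), which is past the threshold in 1 of 2 replicates and was not called. With windows of 25 or 100 nt around the summit the mean difference passed the threshold in both replicates (-3.78 and -3.22 points), and with 400 nt around the codons it was -0.13 points. Last-exon coding summits had it in 52.9% and 52.7%. Distal summits were higher by 3.60 points (0.11 to 7.09, exact test, adjusted p = 0.0652) and 2.63 points (-0.92 to 6.17, adjusted p = 0.177), which was not called either. The mean of both replicates was 1.15 points with 1 summit per gene and 1.91 with the 25-nt window, and it passed the threshold with the 100-nt window (4.35) and with 400 nt around the codons (7.15). Within the distal class the share was 53.4% and 51.8% at 200 to 400 nt and 67.2% (58.0 to 75.6%, n = 119) and 62.4% (53.0 to 71.2%, n = 117) at 1500 to 2000 nt, the highest bin in replicate 1. It was 57.01% and 62.4% at 2000 to 3000 nt, 56.9% and 57.9% at 3000 to 5000 nt, and 45.5% (24.4 to 67.8%, n = 22) and 66.7% (43.0 to 85.4%, n = 21) beyond 5000 nt, so it followed no steady course with distance. Over all distal positions of genes with any placed summit, it went from 27.5% at 200 to 400 nt to 20.4% beyond 5000 nt. These genes are a wider set than the genes with a distal peak scanned above. Just inside the stop codon window, at 150 to 200 nt, the GGAC share of summits was 58.9% and 60.0%. Just outside, at 200 to 250 nt, it was 47.5% in each replicate.

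Elements bound by other 3' UTR regulators were less frequent near distal summits than elsewhere in the same 3' UTRs. The polyadenylation signal AATAAA lay within 50 nt of 2.0% and 1.92% of summits against 6.65% and 6.74% of all distal positions. The AU-rich pentamer ATTTA was at 5.67% and 6.41% against 12% and 12.1%, and the Pumilio element TGTANATA at 0.648% and 0.602% against 1.72% and 1.80%. All 3 are rich in A and T, and the sequence around summits had a median GC content of 51.5% and 50.5% against 46.5% for all distal positions. How much of the lower frequency goes with base composition was not tested. Position also differs: all distal positions include the end of the 3' UTR, which carries the polyadenylation signal. Only 6 summits in each replicate lay in the last 100 nt. The part of this in the AATAAA difference was not tested. Stop codon summits had similar shares of AATAAA (2.13% and 2.14%) and of ATTTA (4.98% and 5.92%).

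Genes were then read by function, in lists of receptors, transcription factors and regulators. Growth factor and cytokine receptors had a distal 3' UTR summit in both replicates in 7 of 28 genes with a 3' UTR over 200 nt, and in 33.3% of the 21 with any placed summit in both, against 22.9% for all such genes. These were Ifnar1, Igf1r, Il6ra, Il7r, Insr, Notch2 and Tnfrsf1b. Tnfrsf1b, a receptor of tumor necrosis factor, had 8.01-fold (112 IP reads against 15) and 8.46-fold (95 against 9.8) at 1114 and 1129 nt of a 2324-nt 3' UTR. Its peak stood near the middle of the 3' UTR in both replicates. Il6ra, the ligand-binding chain of the interleukin 6 receptor, had in replicate 1 a peak at 635 nt (7.01-fold, 55 IP reads) and another at 1449 nt (6.27-fold, 71 IP reads). In replicate 2 a single peak at chr3:89869564-89870832 spanned the region of both, with its summit at 846 nt (4.95-fold, 51 IP reads). The 2 libraries thus placed enrichment over the same stretch of Il6ra but divided it differently.

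The insulin receptor gene Insr had 9.10- and 7.62-fold at 1818 and 1842 nt, and Igf1r, its close relative, 4.93- and 4.90-fold at 4552 and 4498 nt of a 7267-nt 3' UTR. The type I interferon receptor gene Ifnar1 was lower, at 3.12- and 3.46-fold, 278 and 287 nt before the annotated end. Il7r, needed for lymphocyte development, reached 8.57- and 10.9-fold on 39 and 38 IP reads, with summits 308 bp apart. Kit, Flt3, Epor and the other listed receptors had no distal summit in both replicates, and Il6st had one in a single replicate.

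Of 27 hematopoietic transcription factors, 6 had a distal summit in both replicates, or 27.3% of the 22 with any placed summit, near the 22.9% of all such genes. Erg, an ETS factor of stem cell maintenance, was the highest in replicate 1, with 8.11-fold (102 IP reads against 13.4) and 6.46-fold (94 against 13) in replicate 2, at 282 and 301 nt. Cebpb, a factor of emergency granulopoiesis and the highest in replicate 2, had 5.43- and 7.54-fold at 232 and 233 nt, and Gfi1, a repressor of stem cell proliferation, 5.07- and 5.03-fold at 606 and 642 nt. Fli1, the relative of Erg, was at 4.23- and 3.12-fold. The lowest were Gfi1b, the erythroid and megakaryocytic paralog of Gfi1, at 2.38- and 2.03-fold, and Ikzf1, the lymphoid factor Ikaros, at 1.99- and 1.82-fold. These 2 had a high background, with 86 and 80 reads in Gfi1b and 76 and 68 in Ikzf1, so their low fold rested on many reads. Cebpa and Etv6 had a distal summit in 1 replicate only.

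Interferon and inflammatory signaling had 6 of 19 genes, or 40.0% of the 15 with any placed summit, against 7.73% and 22.9% over all genes. Of the 6, 5 are described here. Stat2, a transcription factor of the type I interferon response, had 3.15-fold (49 IP reads against 17) and 3.21-fold (53 against 15) at 1130 and 1107 nt. Irf9, its DNA-binding partner, had 3.24-fold (73 against 25) and 3.43-fold (71 against 19) at 317 and 318 nt. The values of these 2 genes were close to each other and differed little between replicates. Jak1 and Jak2, kinases that bind cytokine receptors, had 5.13- and 4.79-fold at 228 and 239 nt and 6.02- and 3.94-fold at 915 and 916 nt. Irf8, a factor of monocyte and dendritic cell fate, showed 4.37- and 5.70-fold at 534 and 524 nt. With Ifnar1, distal peaks were thus present in genes of a receptor chain, of the kinase Jak1 and of Stat2 and Irf9 downstream. Ifnar2 and Tyk2, which were also listed, had no distal summit in either replicate. The numbers are small, and the 95% interval of 6 of 19 runs from 12.6 to 56.6%.

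Of 35 regulators that act through 3' UTRs, 7 had a distal summit in both replicates (20%, 95% interval 8.44 to 36.9%, against 7.73% of all genes), or 41.2% of the 17 with any placed summit, against 22.9% for all such genes. Pan3, of a deadenylase complex, had 5.58- and 4.01-fold at 946 and 998 nt, and the microRNA effector Ago2 3.74- and 3.38-fold at 1319 and 1301 nt of an 11064-nt 3' UTR. Its partners Tnrc6c and Tnrc6a had 4.16- and 4.08-fold and 3.29- and 2.63-fold. Cnot2, a subunit of the CCR4-NOT deadenylase, had its pair at 2.33- and 2.04-fold. Replicate 1 had a further Cnot2 peak at 791 nt (4.48-fold, 106 IP reads against 26.2), which no peak of replicate 2 overlapped. Ago4 was at 4.73- and 5.64-fold on 12 IP reads in each replicate. Zfp36l2, which binds AU-rich elements, had distal summits in both replicates at different places, 1300 nt in replicate 1 (1.77-fold) and 366 nt in replicate 2 (2.68-fold), and so formed no pair.

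The remaining 3 lists were under the 22.9% of all genes with any placed summit in both replicates. Over all genes with a 3' UTR over 200 nt the share was 7.73%. On that basis early-response genes were at 13.8%, cell cycle genes at 8.33% and the m6A machinery at 5.88%. Early-response genes, whose mRNAs are short-lived, had 4 of 29 (16.7% of 24 with any placed summit), with Ier5 at 4.67- and 6.54-fold and Gadd45b at 4.45- and 7.63-fold on 19 and 23 IP reads beside Gadd45g and Ier2. Fos, Jun, Myc and Egr1 were among those without. Cell cycle genes had 2 of 24 (14.3% of 14), Cdc25a at 3.0- and 2.74-fold and Ccnd2 at 2.80- and 2.39-fold. Of 17 genes of the m6A machinery, Virma, a scaffold of the methyltransferase complex, was the 1 with a distal summit in both replicates (9.09% of 11), at 5.34- and 4.13-fold. Ythdf2 itself was not among them. No list was tested against the others, since its members were chosen with results known, and 3' UTR length differs between lists, with medians from 1189 nt in early-response genes to 2457 nt in the 3' UTR regulators.

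**Figure D5:**
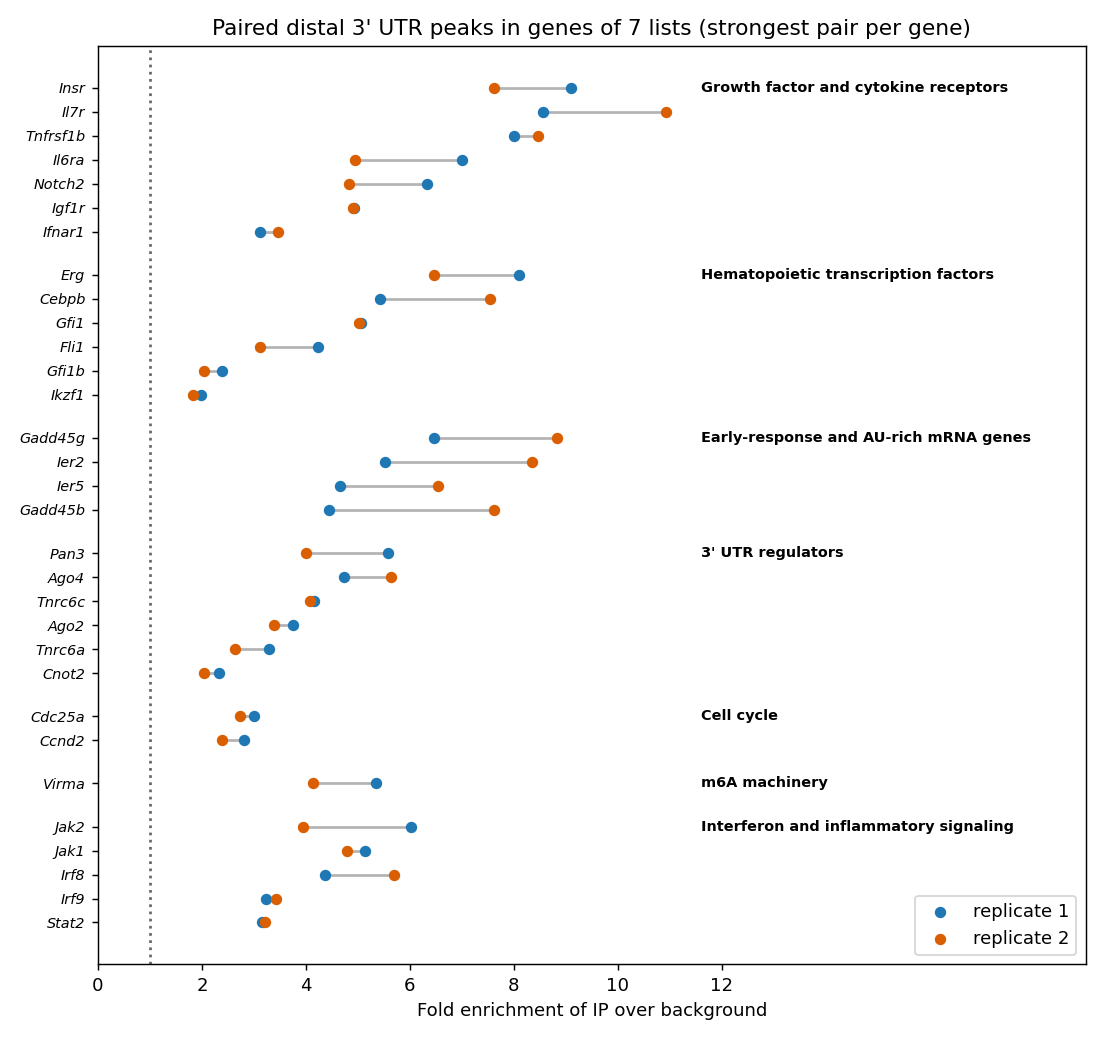
Fold enrichment of IP over background (x axis, linear) of the strongest distal 3' UTR pair of genes in 7 lists. Blue and orange points are replicates 1 and 2, joined by a gray line, and the dotted line marks 1; receptors reach 10.9-fold at Il7r, whereas Cdc25a and Ccnd2 stay between 2.39- and 3.0-fold.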

How the data were processed

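The authors aligned reads to GRCm38 with HISAT2 and called peaks per replicate with MACS2 2.1.1.20160309 without its fragment model. The control library and calling threshold are not given in the sources used here. The deposited narrowPeak lists hold, per peak, a fold (ratio) enrichment, -log10 p-value and -log10 q-value, a score and a summit, with the input samples not analysed here. IP and background reads were recovered by inverting the fold and the Poisson p of the deposited lists (100% of peaks matched), and are given before scaling. Summits were placed on the longest-CDS transcript of each protein-coding gene (GENCODE M21 basic, 21851 genes); placement and the class test were tested on simulated data. Found again means an overlap of at least 1 bp. Shares were compared by Fisher's exact test per replicate and called where the Benjamini-Hochberg adjusted p was under 0.05 in both. Named genes were the 10 pairs of highest q-value, the 8 of highest fold, the 5 with most pairs, the 5 farthest, list members with a pair (5 a list by q-value; the others are added), and Gadd45g, Il6ra and Tnfrsf1b, which the study singles out; some genes the rule names are not reported here. Members and lists were chosen with earlier results of these data known. Alternatives were overlap rules, q and fold minimums, motif and codon windows, 1 summit per gene, other 3' UTR models and each replicate alone. Intervals cover counting error only. Python 3.11.15, scipy 1.17.1 and pandas 2.3.3 were used.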

Additional observations from a re-analysis of the deposited data

How the results depend on the processing

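Differences below are distal 3' UTR minus the other class, as means of both replicates in percentage points. For peaks found again against stop codon peaks (-2.1), the difference was -6.12 with 50% reciprocal overlap and -9.10 with summits within 100 bp, past the threshold in both replicates, and ranged from -4.24 (replicate 2 alone) to 0.035 (replicate 1 alone), a change of direction. Against last-exon coding peaks (-3.04), it turned to 1.06 and 0.70 under those overlap rules, fell short of the threshold at a minimum fold of 4 (-4.76) and with 100 nt (-2.15) or 400 nt (-2.80) around the codons, and ranged from -3.39 to -2.69 in single replicates. For GGAC against stop codon summits (-3.68), windows of 25 nt (-3.78) and 100 nt (-3.22) passed the threshold, 400 nt around the codons brought it to -0.13, and single replicates gave -4.51 to -2.85. Against last-exon coding summits (3.11), the 100-nt window (4.35) and 400 nt around the codons (7.15) passed it, 1 summit per gene (1.15) and the 25-nt window (1.91) lowered it, and single replicates gave 2.63 to 3.60. The ratio of the GGAC share to that of all distal positions (2.03) was 2.26 within 25 nt and 1.63 within 100 nt of the summit, 2.04 and 2.07 at a minimum -log10 q of 3 and 5, 2.04 at a fold of 4, and 2.05 and 2.105 with 100 and 400 nt around the codons. The number of distal summits (3679 over both lists) was 1807 at a fold of 4, 2320 with 400 nt around the codons, and 1826 to 1853 in single replicates, and the number of genes (1311) was 578 and 833 under the former 2. The density ratio about 1000 nt (3.81) was 3.49 at a fold of 4, 4.86 with 1 summit per gene, 3.47 over all protein-coding genes and 3.57 on the longest 3' UTR, and that of the last 200 nt (0.226) was 0.169, 0.240, 0.201 and 0.200. The causes were not tested.

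No paired analysis was possible because the input samples, which share replicate numbers with the IP samples, have no peak list among the files analysed. With 1 group and 2 libraries, no condition was compared. Peaks on few background reads have an uncertain fold, and enrichment cannot be told apart from the level of the transcript as a condition for calling a peak. Summit positions depend on 1 transcript model per gene.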
